A study of Mus musculus with 30 samples.

Results

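T (brachyury), Eomes, Mixl1, Mesp1, Evx1, Wnt3, Fgf8, Gsc and Tbx6 are genes of the primitive streak and the mesoderm that leaves it. They were followed in mouse E14 embryonic stem cells in which regulators of cohesin were degraded. The 9 genes were chosen by symbol from the deposited table of 55421 genes. All 9 passed the filter on low counts, which kept 19868 genes. Their mean counts per library ran from 4.07 for Mesp1 to 298 for Eomes, so the precision differs widely among them.

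The primitive streak forms in the posterior epiblast at gastrulation. Wnt3 starts it, Nodal signalling sustains it, and T and Eomes, a pair of T-box transcription factors, are among the earliest genes switched on there. Fgf8 is needed for cells to migrate out of it, while Mixl1, Gsc, Evx1, Mesp1 and Tbx6 mark and direct particular streak and mesoderm fates. Naive embryonic stem cells express these genes weakly.

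The 30 libraries came from 5 engineered E14 lines (XY, 129P2/Ola background), with 3 untreated and 3 treated libraries per line. Every line carried Tir1, the plant protein that, with auxin, sends a protein fused to the AID degron to the proteasome. The TIR1 line (EN148.10) had no degron fusion. The PDS5AB line (EN293.1) had PDS5A-AID and PDS5B-AID, and the WAPL line (CMW184) had WAPL-AID. The PDS5AB_NIPBL line (EN331.2) had PDS5A-AID, PDS5B-AID, NIPBL-FKBP and RAD21-Halo. The WAPL_NIPBL line (EN382.1) had WAPL-AID, NIPBL-FKBP and RAD21-Halo. The TIR1, PDS5AB and WAPL lines received 500 µM auxin for 24 h, and the NIPBL lines received 500 µM auxin together with 500 nM dTAG-13, the compound that degrades an FKBP fusion, for 24 h. All cells, untreated ones included, grew on gelatin in serum with leukemia inhibitory factor, the MEK inhibitor PD0325901 and the GSK3 inhibitor CHIR-99021. The first inhibitor blocks FGF/ERK signalling and the second activates the Wnt pathway, so both pathways were under drug control in every group. Each genotype is represented by a single line name, so a difference between lines may belong to that line rather than to its genotype. No group received dTAG-13 without auxin. Where a NIPBL line responds differently from the PDS5AB or WAPL line, NIPBL loss, dTAG-13 itself and the RAD21-Halo fusion cannot be told apart. Protein loss was not measured in these files, and messenger RNA does not report it.

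Total counts ran from 19632704 to 45539021 fragments per library. Library numbers in the labels fall into 2 sets. The 9 numbers up to 21 hold untreated TIR1 and all PDS5AB libraries, and the 21 numbers from 25 hold the rest, treated TIR1 included. The TIR1 treatment effect and the untreated levels of the WAPL, PDS5AB_NIPBL and WAPL_NIPBL lines against TIR1 therefore cross these sets, and set and group cannot be told apart there. The treatment effects of the 4 degron lines lie within a set. Pluripotency genes were high throughout: in CPM (counts scaled to each library's TMM-adjusted size), 10 markers (among them Pou5f1, Sox2, Nanog and Esrrb) summed to between 4715 and 8071 in every library. The labels do not say whether the 3 libraries of a group came from separate cultures, so p-values measure only the spread between these libraries.

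In the deposited GENCODE M23 models on GRCm38, T lies at chr17:8434423-8442496 (plus strand), Eomes at chr9:118478212-118486132 (plus), Mixl1 at chr1:180693043-180697034 (minus) and Wnt3 at chr11:103774150-103817957 (plus). Gsc lies at chr12:104471209-104473330 (minus), Evx1 at chr6:52313498-52318378 (plus) and Fgf8 at chr19:45736798-45742915 (minus). Mesp1 at chr7:79792241-79793788 (minus) and Tbx6 at chr7:126781483-126785560 (plus) share a chromosome.

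The stretches below lie upstream of the 4 best-counted members whose levels the results turn on most, in RefSeq sequence of GRCm38.p6. They are trimmed so that none of the bases lies inside the RefSeq or the GENCODE gene.
T, chr17:8434173-8434422, plus strand: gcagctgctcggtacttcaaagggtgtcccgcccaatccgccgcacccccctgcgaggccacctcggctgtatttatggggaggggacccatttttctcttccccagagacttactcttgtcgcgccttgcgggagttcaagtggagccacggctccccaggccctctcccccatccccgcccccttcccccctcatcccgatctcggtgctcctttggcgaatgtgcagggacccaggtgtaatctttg
Wnt3, chr11:103773925-103774149, plus strand: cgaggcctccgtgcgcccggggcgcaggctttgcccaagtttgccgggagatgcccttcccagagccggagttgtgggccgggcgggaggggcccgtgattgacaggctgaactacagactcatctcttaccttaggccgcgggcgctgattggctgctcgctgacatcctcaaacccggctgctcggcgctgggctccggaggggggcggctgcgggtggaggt
Eomes, chr9:118477939-118478188, plus strand: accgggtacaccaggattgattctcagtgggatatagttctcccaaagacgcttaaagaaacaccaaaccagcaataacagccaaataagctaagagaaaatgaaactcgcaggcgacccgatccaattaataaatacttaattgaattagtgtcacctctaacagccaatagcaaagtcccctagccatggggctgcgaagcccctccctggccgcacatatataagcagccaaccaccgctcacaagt
Gsc, chr12:104473331-104473486, minus strand: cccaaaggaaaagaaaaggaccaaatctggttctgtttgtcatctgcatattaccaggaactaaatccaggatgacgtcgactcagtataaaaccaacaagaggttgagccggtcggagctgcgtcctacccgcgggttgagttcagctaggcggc
The Wnt3 stretch is the richest in G and C, at 68.9% with 20 CpG in 225 bases, and the T stretch has 62.8% with 14 CpG in 250 bases. The Eomes stretch has 46.4% with 8 CpG in 250 bases, and the Gsc stretch 50% with 8 CpG in 156 bases. Before trimming, at 250 bases, the Wnt3 window has 68% with 22 CpG and the Gsc window 59.2% with 22 CpG. Over 32851 windows of 250 bases before a RefSeq start, the median was 52.4% with 6 CpG.

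Motifs of factors that act in the streak were searched on both strands of the 250 bases before the RefSeq start, in the 7 members for which the table held a window (none was used for Mixl1 and Fgf8). None of the 7 held the T-box motif AGGTGTGA, which 1.12% of the 32851 windows hold, the FOXH1 motif AATCCACA (0.718%) or the palindromic SMAD motif GTCTAGAC (0.167%). The TCF/LEF motif ATCAAAG, held by 3.21% of windows, was in 1 of the 7. It lies 31 bases before the RefSeq start of Mesp1, inside the longer GENCODE gene, and is in capitals (as its reverse complement) in the site shown to mark that match.
Mesp1, chr7:79793605-79793631, minus strand: ctcgagccggCTTTGATatgctgatga
A match describes letters only, and none of the motifs shown overlaps another.

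Compared per length, the 9 genes were weakly expressed in every group, from 0.00336 to 8.59 RPKM (CPM divided by exon length). T, Eomes or Gsc was the highest member in each of the 10 groups, and the leading gene depended on the line. Gsc led in untreated TIR1 cells at 5.42 ± 0.585 RPKM (SD, n = 3), where Eomes stood at 2.14 ± 0.347 and T at 0.436 ± 0.102. Eomes led in untreated PDS5AB cells at 4.93 ± 1.55 RPKM, where Gsc stood at 0.511 ± 0.147. T led in untreated WAPL_NIPBL cells at 3.90 ± 0.310 RPKM. Mesp1 and Evx1 were the lowest pair in most groups, and Mesp1 never exceeded 0.290 RPKM as a group mean.

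**Figure D1:**
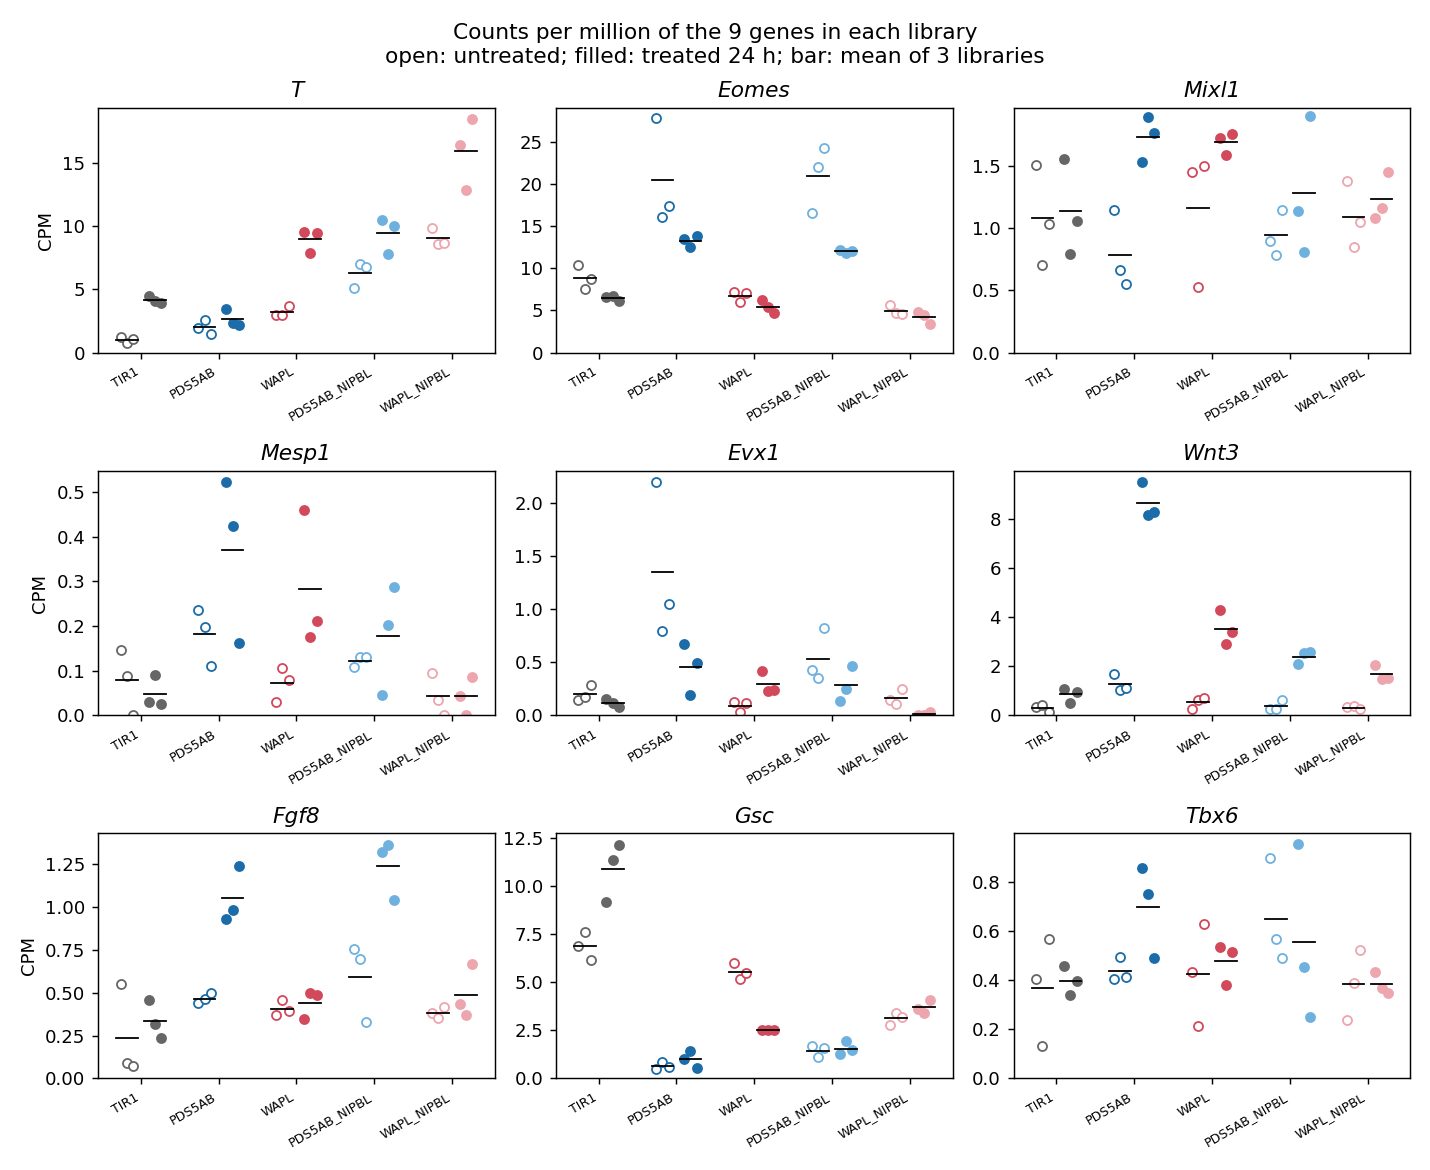
CPM (TMM-scaled, linear axes starting at 0, a scale of its own for each gene) of the 9 genes in each of the 30 libraries, by line; open points are untreated libraries, filled points treated ones, and bars the means of 3 libraries. Filled Wnt3 points lie above the open ones in all 5 lines, while Gsc points differ more between lines than with treatment.

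Wnt3, the ligand that starts the streak, was higher after treatment in all 5 lines. In the PDS5AB line it went from 1.69, 1.06 and 1.13 CPM untreated to 9.51, 8.17 and 8.30 CPM after auxin. In the WAPL line it went from 0.278, 0.635 and 0.709 CPM to 4.29, 2.90 and 3.39 CPM. In neither line did the groups overlap. Here and below, whether groups overlap is a description only, given without the share of all genes whose groups are apart. The PDS5AB_NIPBL line went from 0.251, 0.261 and 0.622 CPM to 2.09, 2.53 and 2.58 CPM, and the WAPL_NIPBL line from 0.332, 0.388 and 0.244 CPM to 2.08, 1.47 and 1.51 CPM. In TIR1 cells, which have no degron fusion, auxin moved it from 0.331, 0.440 and 0.142 CPM to 1.09, 0.520 and 0.952 CPM, again without overlap.

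In edgeR's quasi-likelihood fit, with p-values adjusted over all 19868 genes, Wnt3 rose by a log2 fold change of 2.75 ± 0.26 (SE) in the PDS5AB line (adjusted p = 7.99e-10) and 2.72 ± 0.31 in the WAPL line (adjusted p = 3.81e-08). It rose by 2.61 ± 0.34 in the PDS5AB_NIPBL line (adjusted p = 1.32e-06) and 2.36 ± 0.36 in the WAPL_NIPBL line (adjusted p = 4.47e-05). These are 5.14 to 6.71-fold rises, and without untreated replicate 3 the PDS5AB_NIPBL log2 value was 3.21. The rise in TIR1 cells was 1.49 ± 0.39 (adjusted p = 0.00734), or 2.81-fold, and without untreated TIR1 replicate 3 it was 1.13 (adjusted p = 0.0637). The differences from the TIR1 effect were 1.25 ± 0.51 for PDS5AB (adjusted p = 0.0678), 1.23 ± 0.54 for WAPL (adjusted p = 0.107), 1.12 ± 0.56 for PDS5AB_NIPBL (adjusted p = 0.222) and 0.87 ± 0.58 for WAPL_NIPBL (adjusted p = 0.405). None passed the threshold, so the degron lines were not shown to differ from auxin alone; these comparisons cross the library sets through TIR1. With the replicate number as a block within each library set, the PDS5AB difference was 1.41 (adjusted p = 0.0371), and with DESeq2 its adjusted p was 0.0480. Single libraries also moved it over the threshold: it was 1.62 (adjusted p = 0.0257) without untreated TIR1 replicate 3, 1.44 (adjusted p = 0.0466) without treated TIR1 replicate 1 and 1.48 (adjusted p = 0.0350) without untreated PDS5AB replicate 1. The WAPL difference was 1.59 (adjusted p = 0.0451) without untreated TIR1 replicate 3.

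The Wnt3 response in the NIPBL lines differed from that in the single-cofactor lines by -0.14 ± 0.48 (PDS5AB_NIPBL minus PDS5AB, adjusted p = 0.905) and -0.36 ± 0.52 (WAPL_NIPBL minus WAPL, adjusted p = 0.812). Errors of that size do not show that the responses were equal. Levels are given side by side without a test, since the PDS5AB and PDS5AB_NIPBL libraries lie in different library sets and set and line cannot be told apart: treated PDS5AB cells averaged 8.66 ± 0.742 CPM (SD, n = 3) and treated PDS5AB_NIPBL cells 2.40 ± 0.265 CPM, from untreated means of 1.29 ± 0.343 and 0.378 ± 0.212 CPM.

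Fgf8, the growth factor that cells need to leave the streak, was called higher in the PDS5AB and PDS5AB_NIPBL lines. It went from 0.438, 0.463 and 0.497 CPM to 0.932, 0.980 and 1.24 CPM in PDS5AB cells, a log2 fold change of 1.17 ± 0.37 (edgeR adjusted p = 0.0102). In PDS5AB_NIPBL cells it went from 0.753, 0.696 and 0.328 CPM to 1.32, 1.36 and 1.04 CPM, a log2 fold change of 1.07 ± 0.37 (adjusted p = 0.0394). The second call rests on few counts: the adjusted p lay between 0.0522 and 0.225 when any of untreated replicates 2 and 3 or treated replicates 1 and 2 was left out, and was 0.0508 with no filter on low counts. The values in the WAPL, WAPL_NIPBL and TIR1 lines were 0.14 ± 0.42, 0.36 ± 0.43 and 0.45 ± 0.48, none past the threshold. Untreated TIR1 libraries were uneven, at 0.551, 0.0881 and 0.0709 CPM, and without replicate 1 the TIR1 value was 2.05 (adjusted p = 0.0107). The PDS5AB effect minus the WAPL effect was 1.03 ± 0.56 (adjusted p = 0.255), and the differences from the TIR1 effect were 0.71 ± 0.62 for PDS5AB (adjusted p = 0.428) and 0.62 ± 0.62 for PDS5AB_NIPBL (adjusted p = 0.587), so a difference between these lines was not shown.

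T, the T-box factor that defines the streak and its mesoderm, differed widely in level between lines. Untreated libraries held 1.21, 0.748 and 1.06 CPM in TIR1 cells and 1.96, 2.55 and 1.43 CPM in PDS5AB cells. WAPL cells held 3.0, 2.96 and 3.70 CPM, PDS5AB_NIPBL cells 5.13, 6.96 and 6.75 CPM, and WAPL_NIPBL cells 9.85, 8.60 and 8.62 CPM. No 2 of these 5 untreated groups overlapped. After treatment the TIR1 libraries held 4.47, 4.05 and 3.91 CPM and the PDS5AB libraries 3.47, 2.35 and 2.19 CPM. Treated WAPL libraries held 9.51, 7.86 and 9.46 CPM, treated PDS5AB_NIPBL libraries 10.5, 7.78 and 9.99 CPM, and treated WAPL_NIPBL libraries 16.4, 12.8 and 18.5 CPM. Treated and untreated groups were apart in every line except PDS5AB. Treated WAPL, untreated WAPL_NIPBL and treated PDS5AB_NIPBL libraries overlapped at 7.78 to 10.5 CPM.

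Among the 5 lines, T responded most in TIR1 cells given auxin, with a log2 fold change of 2.02 ± 0.23 (edgeR adjusted p = 1.91e-07), or 4.04-fold. T rose by 1.48 ± 0.18 in WAPL cells (adjusted p = 1.95e-07), 0.82 ± 0.17 in WAPL_NIPBL cells (adjusted p = 0.00117) and 0.59 ± 0.17 in PDS5AB_NIPBL cells (adjusted p = 0.0150). The last call was lost when untreated replicate 1, treated replicate 1 or treated replicate 3 was left out, with adjusted p from 0.0571 to 0.104. In PDS5AB cells the value was 0.43 ± 0.21 (adjusted p = 0.0916); without untreated replicate 2 it was 0.66 (adjusted p = 0.0233), and without treated replicate 1 it was 0.20 (adjusted p = 0.504). The response was smaller than in TIR1 cells by 1.58 ± 0.31 on the log2 scale for PDS5AB (adjusted p = 0.000347). For PDS5AB_NIPBL the difference was -1.43 ± 0.29 (adjusted p = 0.00143) and for WAPL_NIPBL -1.20 ± 0.28 (adjusted p = 0.00791). For WAPL it was -0.54 ± 0.30 (adjusted p = 0.207). The TIR1 effect crosses the library sets, and all 4 differences inherit this. Within the degron lines, the PDS5AB response was smaller than the WAPL response by a log2 difference of -1.04 ± 0.28 (adjusted p = 0.0114); without untreated PDS5AB replicate 2 it was -0.82 (adjusted p = 0.0728), and the PDS5AB and WAPL libraries belong to different sets. The PDS5AB_NIPBL response minus the PDS5AB response, across the library sets, was 0.16 ± 0.27 (adjusted p = 0.788), and the WAPL_NIPBL response minus the WAPL response was -0.66 ± 0.25 (adjusted p = 0.128; 0.0295 with the replicate block within library set).

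Eomes, the T-box factor of the anterior streak and definitive endoderm, was called lower with treatment in the PDS5AB and PDS5AB_NIPBL lines. PDS5AB libraries held 27.9, 16.2 and 17.4 CPM untreated and 13.5, 12.6 and 13.8 CPM after auxin. PDS5AB_NIPBL libraries held 16.5, 22.1 and 24.3 CPM untreated and 12.2, 11.8 and 12.1 CPM treated. Every treated library lay below every untreated one of its line, and the treated libraries were the more uniform. Eomes fell by 0.62 ± 0.16 on the log2 scale in PDS5AB cells (edgeR adjusted p = 0.00177) and by 0.80 ± 0.16 in PDS5AB_NIPBL cells (adjusted p = 0.000538). Without untreated PDS5AB replicate 1, the highest library, the first value was -0.34 (adjusted p = 0.0596).

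The other 3 lines had less Eomes and no called change. TIR1 libraries held 10.4, 7.53 and 8.72 CPM untreated and 6.63, 6.69 and 6.11 CPM with auxin, a log2 fold change of -0.46 ± 0.17 (adjusted p = 0.0557). That call turns with the fit: the adjusted p was 0.0131 with the compared groups alone, 0.0147 with no filter, 0.0370 and 0.00347 with the replicate block, without and within library set, and 0.0434 without untreated replicate 2. WAPL libraries held 7.23, 5.96 and 7.13 CPM untreated and 6.29, 5.37 and 4.66 CPM treated, and WAPL_NIPBL libraries 5.64, 4.76 and 4.54 CPM untreated and 4.80, 4.41 and 3.40 CPM treated. Their log2 fold changes were -0.32 ± 0.18 and -0.25 ± 0.19. No Eomes response differed from another past the threshold in the 7 differences tested. The exons of Eomes overlap those of Gm33460 on the opposite strand. Counting ignored strand and dropped fragments that fit both genes. Gm33460 had at most 13 counts in any library, which does not show how many Eomes fragments were dropped.

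Tbx6, the T-box factor of paraxial mesoderm, had no called change in any of the 16 comparisons. Its levels lay between 0.132 and 0.956 CPM in all 30 libraries, and its log2 fold changes with treatment ran from -0.27 ± 0.42 in PDS5AB_NIPBL cells to 0.67 ± 0.41 in PDS5AB cells. At a mean of 13.8 counts per library, changes of the size of these errors were not detectable.

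Gsc, the homeobox factor of the anterior streak and organiser, separated the lines more than the treatments. Untreated libraries held 6.87, 7.62 and 6.13 CPM in TIR1 cells, 5.99, 5.15 and 5.47 CPM in WAPL cells and 2.80, 3.38 and 3.18 CPM in WAPL_NIPBL cells. PDS5AB_NIPBL cells held 1.69, 1.09 and 1.57 CPM and PDS5AB cells 0.506, 0.859 and 0.580 CPM. No 2 of these groups overlapped. Auxin took the WAPL libraries to 2.49, 2.49 and 2.54 CPM and the TIR1 libraries to 9.18, 11.4 and 12.1 CPM. Treated PDS5AB libraries held 1.01, 1.44 and 0.555 CPM, treated PDS5AB_NIPBL libraries 1.28, 1.92 and 1.47 CPM and treated WAPL_NIPBL libraries 3.59, 3.40 and 4.06 CPM.

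Gsc was called lower in WAPL cells, with a log2 fold change of -1.14 ± 0.19 (edgeR adjusted p = 1.88e-05), and higher in TIR1 cells, at 0.67 ± 0.17 (adjusted p = 0.00542). The WAPL effect minus the TIR1 effect was -1.81 ± 0.25 (adjusted p = 4.39e-06). The value in WAPL_NIPBL cells was 0.24 ± 0.19 (adjusted p = 0.542), and it exceeded the WAPL effect by 1.38 ± 0.27 (adjusted p = 0.00161), a comparison within 1 library set. The PDS5AB value was 0.63 ± 0.27 (adjusted p = 0.0598; 0.0443 with the replicate block within library set). It was 0.87 (adjusted p = 0.0244) without untreated replicate 2 and 0.92 (adjusted p = 0.00439) without treated replicate 3, but 0.25 (adjusted p = 0.515) without treated replicate 2. It exceeded the WAPL effect, measured in the other library set, by 1.77 ± 0.33 (adjusted p = 0.000427). In PDS5AB_NIPBL cells the value was 0.08 ± 0.24 (adjusted p = 0.884).

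Mixl1, a homeobox factor of the streak, was called higher in PDS5AB cells and in no other line. There it went from 1.15, 0.661 and 0.552 CPM to 1.53, 1.89 and 1.76 CPM, a log2 fold change of 1.15 ± 0.34 (edgeR adjusted p = 0.00594) without overlap. WAPL libraries held 1.45, 0.529 and 1.50 CPM untreated and 1.73, 1.58 and 1.75 CPM treated, 0.54 ± 0.33 (adjusted p = 0.218). The values in the other lines were 0.46 ± 0.35 (PDS5AB_NIPBL), 0.21 ± 0.34 (WAPL_NIPBL) and 0.04 ± 0.34 (TIR1). None of the 7 differences tested between these responses passed the threshold. The PDS5AB effect minus the TIR1 effect was 1.12 ± 0.48 (adjusted p = 0.0855), and 0.0394 with the replicate block.

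Evx1, a homeobox factor of the posterior streak, was best counted in untreated PDS5AB cells, with 65, 24 and 38 counts, and had 18, 6 and 15 counts there after auxin. The log2 fold change was -1.57 ± 0.42 (edgeR adjusted p = 0.00292), and -1.04 (adjusted p = 0.0613) without untreated replicate 1, the highest library. In WAPL cells the counts went from 4, 1 and 3 to 11, 8 and 8, a log2 fold change of 1.61 ± 0.66 (adjusted p = 0.0589; 0.0267 with the replicate block). The PDS5AB effect minus the WAPL effect, measured in different library sets, was -3.19 ± 0.78 (adjusted p = 0.00562). In WAPL_NIPBL cells the counts went from 3, 3 and 7 to 0, 0 and 1. This drop was called (adjusted p = 0.0394). The untreated mean was 1.59-fold above a floor of 3 counts per library, a ratio that leaves out counting error. Leaving out any of 5 of the 6 libraries, all except untreated replicate 2, ended the call, with adjusted p from 0.0546 to 0.181.

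The WAPL_NIPBL and WAPL responses of Evx1 differed past the threshold (adjusted p = 0.0134). The fitted log2 difference of -5.09 depends on the group near 0 and is no measure of size. Without untreated WAPL_NIPBL replicate 3 the adjusted p was 0.0644. The PDS5AB_NIPBL and TIR1 values were -0.87 ± 0.52 and -0.82 ± 0.65, neither called. The exons of Evx1 overlap those of Evx1os on the opposite strand. Since counting ignored strand, reads of the pair cannot be told apart where they overlap, and Evx1 is uncertain for that reason as well. Evx1os itself had at most 17 counts in any library.

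Mesp1, the bHLH factor of early cardiac mesoderm, had 14 counts or fewer in every library. WAPL libraries held 1, 3 and 2 counts untreated and 12, 6 and 7 after auxin. That was called higher (edgeR adjusted p = 0.0452). The treated mean was 2.68-fold above a floor of 3 counts per library, a ratio that leaves out counting error. The call did not hold with DESeq2 (adjusted p = 0.0911), with no filter (adjusted p = 0.0698) or without any of 5 of the 6 libraries, all except treated replicate 2, where adjusted p ran from 0.0539 to 0.200. PDS5AB libraries held 7, 6 and 4 counts untreated and 14, 13 and 5 treated, 1.02 ± 0.58 (adjusted p = 0.155). In WAPL_NIPBL cells both groups had 3 counts or fewer, so no fold is given.

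**Figure D2:**
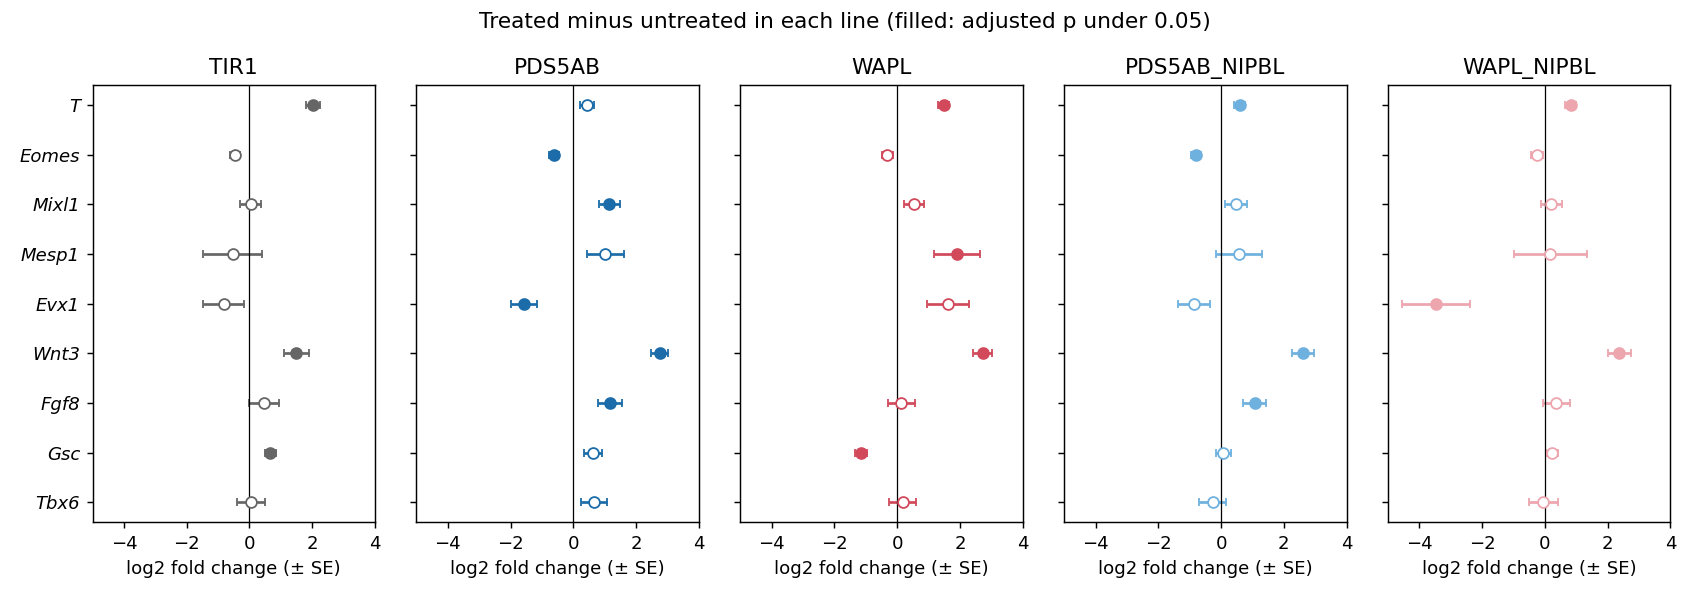
Log2 fold change of treated against untreated libraries for the 9 genes in each line, with standard errors as bars (n = 3 against 3); filled points passed an adjusted p of 0.05. Wnt3 is filled and to the right of 0 in all 5 panels, T in 4, and Gsc lies on opposite sides in the TIR1 and WAPL panels.

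Counted over the 9 genes, 3 were called with treatment in TIR1 cells, all higher, where 19.9% of the 19868 genes tested were called (10.4% higher and 9.59% lower). In PDS5AB cells 3 were higher and 2 lower, beside 46% of all genes (25.8% higher and 20.2% lower). In WAPL cells 3 were higher and 1 lower, beside 32.8% (17% and 15.8%). In PDS5AB_NIPBL cells 3 were higher and 1 lower, beside 19.5% (11.4% and 8.06%), and in WAPL_NIPBL cells 2 were higher and 1 lower, beside 8.57% (5.11% and 3.45%). The count in PDS5AB cells thus lies near the share of all genes, and it was 3 in place of 5 without untreated PDS5AB replicate 1. The PDS5AB_NIPBL count was 2 in place of 4 without treated replicate 1. The median log2 fold change of the 9 genes was 0.06 in TIR1, 0.67 in PDS5AB, 0.54 in WAPL, 0.46 in PDS5AB_NIPBL and 0.21 in WAPL_NIPBL cells, against -0.01 to 0.04 over all genes. The tests here share an estimate of spread, and the 4 differences from TIR1 share its libraries.

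The differences between responses were fewer. Against the TIR1 effect, 1 of the 9 was called in each degron line: T in PDS5AB, PDS5AB_NIPBL and WAPL_NIPBL, and Gsc in WAPL, beside 26.3%, 10.1%, 7.04% and 20.7% of all genes in that order. With the replicate block the PDS5AB count was 2, with Mixl1 added, and the WAPL count was 2, with Evx1 added. The PDS5AB count was 3 without untreated PDS5AB replicate 1 or treated TIR1 replicate 1 and 2 without untreated TIR1 replicate 2 or 3, and the WAPL count was 2 without untreated TIR1 replicate 3. Between PDS5AB and WAPL 3 were called (T, Evx1 and Gsc), beside 12.5%. Between WAPL_NIPBL and WAPL 2 were called (Evx1 and Gsc), beside 5.19%, and 1 without untreated WAPL_NIPBL replicate 3. Between PDS5AB_NIPBL and PDS5AB none was called by edgeR at the adjusted threshold or at an unadjusted p under 0.05, and none by DESeq2, beside 9.46%. The standard errors of these 9 differences ran from 0.23 for Eomes to 0.97 for Mesp1, so the missed threshold does not show equal responses.

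Before any treatment, the lines already differed in these genes. Untreated PDS5AB libraries, which share a library set with untreated TIR1, were called different in 5 of 9, beside 32% of all genes. Gsc was 10.6-fold lower there (log2 -3.40 ± 0.22, edgeR adjusted p = 4.26e-13) and Evx1 6.44-fold higher (2.69 ± 0.49, adjusted p = 5.9e-05). Wnt3 was 4.30-fold higher (2.10 ± 0.38, adjusted p = 5.42e-05), Eomes 2.30-fold higher (1.20 ± 0.16, adjusted p = 8.42e-07) and T 1.92-fold higher (0.94 ± 0.25, adjusted p = 0.00357). The untreated PDS5AB libraries enter both these differences and the auxin effect of that line, so a high Eomes or Evx1 value in one of them raises the first and lowers the second. Other genes differed between the same untreated groups: 13 of the 27 tested genes of a wider streak and mesoderm list were called higher and 4 lower. Of 8 endoderm markers tested 6 were called higher and none lower, with a sum of 18.5 to 24.2 CPM in PDS5AB against 6.10 to 7.24 CPM in TIR1 libraries. Their part in the members' differences was not tested.

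In the 3 lines whose comparison with TIR1 crosses the library sets, T was called higher in each: 3.14-fold in WAPL (1.65 ± 0.24, adjusted p = 1.16e-05), 6.13-fold in PDS5AB_NIPBL (2.62 ± 0.22, adjusted p = 2.22e-10) and 8.80-fold in WAPL_NIPBL (3.14 ± 0.22, adjusted p = 5.1e-12). It was the only member called in untreated WAPL cells, beside 14% of all genes (2 members without untreated TIR1 replicate 1, and 2 with the replicate block within library set, where Eomes was lower by a log2 value of -0.62, adjusted p = 0.0131). In PDS5AB_NIPBL cells 5 of 9 were called, beside 34.3%, with Eomes 2.36-fold and Fgf8 2.39-fold higher, Evx1 2.63-fold higher and Gsc 4.68-fold lower. The Fgf8 call there was lost without any of 4 libraries (untreated TIR1 replicate 2 or 3, PDS5AB_NIPBL replicate 1 or 2), with log2 values from 0.80 to 1.14 and adjusted p from 0.0956 to 0.199, while without untreated TIR1 replicate 1 the value was 2.84 (adjusted p = 0.000139). The Evx1 call was lost without any of 3 (untreated TIR1 replicate 1 or 2, PDS5AB_NIPBL replicate 3), with adjusted p from 0.113 to 0.271. The Evx1 call was also lost with DESeq2 (adjusted p = 0.0839) and the Fgf8 call with the compared groups alone (adjusted p = 0.110). With the replicate block within library set the log2 difference was 1.13 for Fgf8 (adjusted p = 0.0996) and 0.80 for Evx1 (adjusted p = 0.284), and 3 members were called, as they were without untreated TIR1 replicate 2. In WAPL_NIPBL cells 3 of 9 were called, beside 28%, with Eomes 1.80-fold and Gsc 2.19-fold lower. Wnt3 was not called in these 3 lines (log2 0.83 ± 0.44, 0.39 ± 0.47 and 0.11 ± 0.49 for WAPL, PDS5AB_NIPBL and WAPL_NIPBL).

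**Figure D3:**
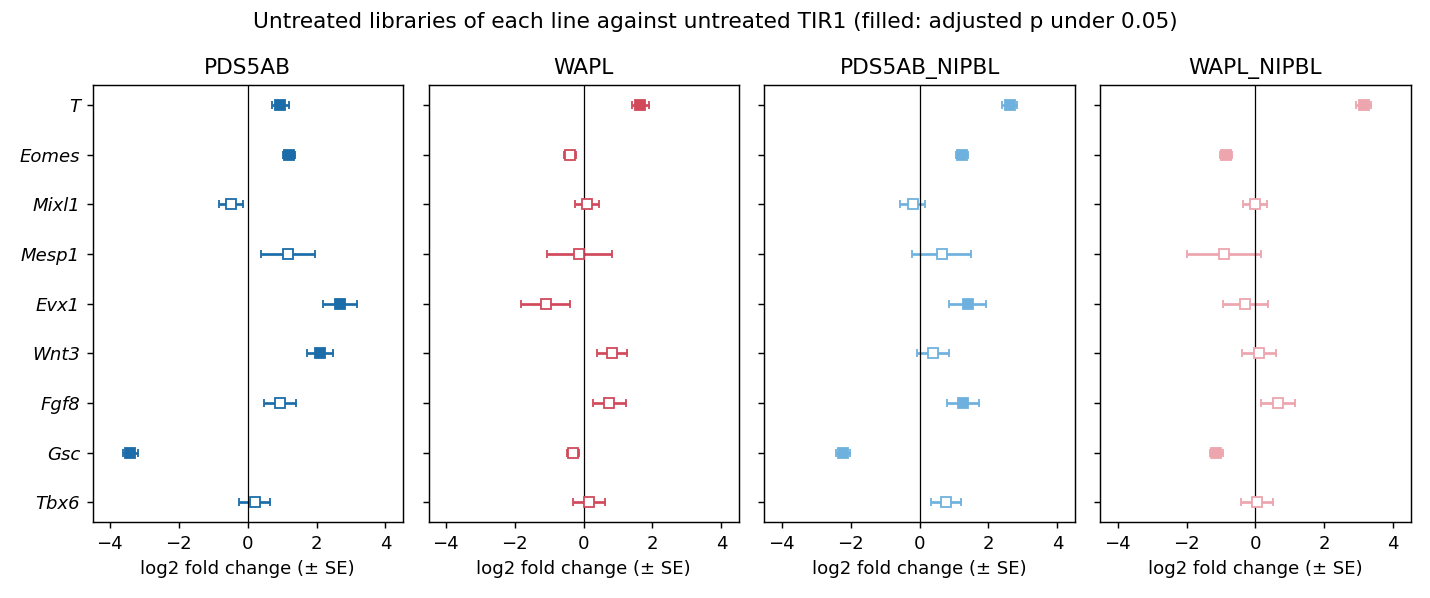
Log2 fold change of the untreated libraries of each degron line against untreated TIR1 libraries, with standard errors as bars (n = 3 against 3); filled points passed an adjusted p of 0.05. T is filled and above 0 in all 4 panels, and Gsc is filled and below 0 in all except WAPL.

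Wider lists of genes around the 9 were counted in the same fits. Fold changes of a gene named from a list are printed only for lines where it was among the up to 2 genes named. In a line not given, the gene may have changed too. Of 32 other streak and mesoderm genes, 27 were tested. With treatment, 13 rose and 5 fell in PDS5AB cells, 9 rose and 7 fell in WAPL cells, 7 rose and 4 fell in PDS5AB_NIPBL cells, 5 rose and 2 fell in WAPL_NIPBL cells, and 3 rose and 3 fell in TIR1 cells (3 called in all without untreated TIR1 replicate 1). Over all genes, 25.8%, 17%, 11.4%, 5.11% and 10.4% were called higher in these lines and 20.2%, 15.8%, 8.06%, 3.45% and 9.59% lower, and the counts of every list below are to be read against these shares. The median log2 fold changes of the 27 were 0.87, 0.51, 0.55, 0.25 and 0.14. Wnt8a, a second Wnt ligand of the streak, rose by 2.15 ± 0.21 in PDS5AB, 1.97 ± 0.24 in WAPL, 2.35 ± 0.28 in PDS5AB_NIPBL and 2.02 ± 0.41 in WAPL_NIPBL cells on the log2 scale. In TIR1 cells its level was 0.517 ± 0.105 CPM untreated and 0.522 ± 0.0927 CPM with auxin. Pdgfra, a receptor of early mesoderm, rose by 1.81 ± 0.15 in PDS5AB_NIPBL, 1.52 ± 0.17 in WAPL_NIPBL and 1.18 ± 0.18 in TIR1 cells. Cdx2, a factor of the posterior axis, rose by 2.78 ± 0.23 in TIR1 cells, from 1.45 ± 0.243 to 9.90 ± 1.04 CPM, across the library sets. Fgf17 fell by 2.18 ± 0.33 in PDS5AB cells and Lix1 fell by 2.04 ± 0.23 in WAPL cells.

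In the Wnt output list (15 genes, all tested), 8 rose and 1 fell in TIR1 cells, 7 and 3 in PDS5AB, 7 and 2 in WAPL, 6 and 4 in PDS5AB_NIPBL, and 4 and 1 in WAPL_NIPBL cells, beside 19.9%, 46%, 32.8%, 19.5% and 8.57% of all genes called in either direction. Dkk1, a secreted Wnt inhibitor, rose by 3.24 ± 0.29 in WAPL, 2.59 ± 0.29 in PDS5AB, 2.37 ± 0.29 in PDS5AB_NIPBL and 2.03 ± 0.29 in WAPL_NIPBL cells. Lef1, which carries the Wnt signal to DNA, rose by 2.14 ± 0.19 in WAPL, 2.09 ± 0.24 in TIR1 and 0.79 ± 0.18 in WAPL_NIPBL cells. Rnf43, which removes Wnt receptors, rose by 1.62 ± 0.27 in TIR1 cells, and Ccnd1 (cyclin D1) fell, with log2 fold changes of -1.77 ± 0.13 in PDS5AB and -1.0 ± 0.12 in PDS5AB_NIPBL cells.

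In the Nodal list (18 of 20 tested), 7 rose and 3 fell in PDS5AB cells, 5 and 1 in WAPL, 6 and 2 in PDS5AB_NIPBL, 1 and 1 in WAPL_NIPBL, and 4 and 4 in TIR1 cells. With the replicate block 5 were called in WAPL_NIPBL cells in place of 2. The 8 calls in PDS5AB_NIPBL cells became 4 without treated replicate 1 and 5 without untreated replicate 2, and the 8 in TIR1 cells became 5 without treated replicate 1 or 3. Inhbb, which encodes an activin subunit, fell in all 5 lines, with log2 fold changes of -2.32 ± 0.30, -3.03 ± 0.32, -2.03 ± 0.33 and -2.72 ± 0.36 in PDS5AB, WAPL, PDS5AB_NIPBL and WAPL_NIPBL cells and -1.41 ± 0.26 in TIR1 cells. Lefty1, a Nodal antagonist, fell by 1.53 ± 0.20 in TIR1 cells.

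The FGF list (14 genes, all tested) split: 5 rose and 5 fell in PDS5AB cells, 2 and 6 in WAPL, 3 and 4 in PDS5AB_NIPBL, 2 and 4 in WAPL_NIPBL, and 1 and 2 in TIR1 cells. The 6 calls in WAPL_NIPBL cells became 3 without treated replicate 1 or untreated replicate 2. Etv4 and Dusp6, readouts of ERK activity, fell in all 5 lines. The log2 fold change of Dusp6 was -2.36 ± 0.22 in PDS5AB, -2.14 ± 0.23 in PDS5AB_NIPBL, -1.41 ± 0.22 in WAPL_NIPBL, -1.36 ± 0.21 in WAPL and -0.88 ± 0.20 in TIR1 cells. That of Etv4 was -1.90 ± 0.26, -1.50 ± 0.25, -1.57 ± 0.27, -1.74 ± 0.25 and -1.38 ± 0.24 in these lines in that order. Fgf8 rose in PDS5AB and PDS5AB_NIPBL cells beside these falls.

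**Figure D4:**
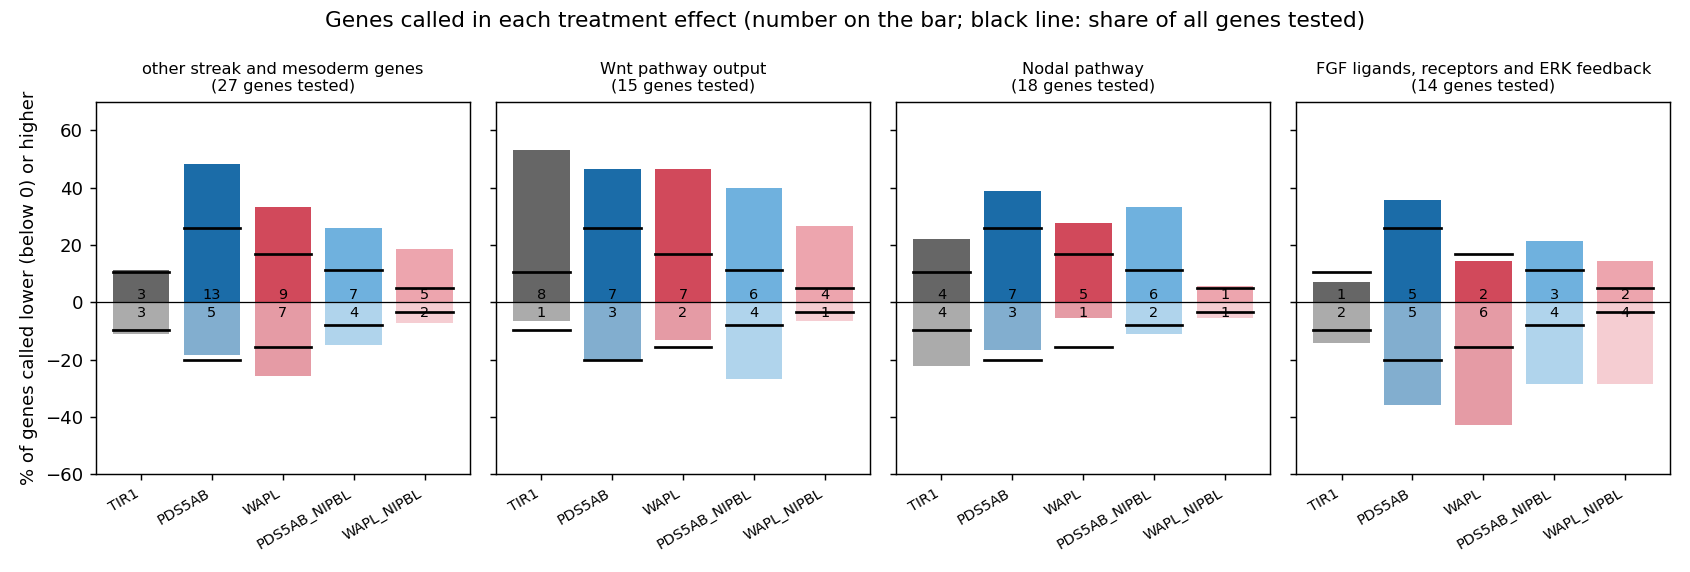
Share of the tested genes of 4 lists that were called higher (above 0) or lower (below 0) with treatment in each line; numbers give the genes called, and black lines the share of all 19868 genes tested called in that direction. Among the other streak and mesoderm genes the higher share exceeds the line in the 4 degron lines, with 13, 9, 7 and 5 genes, and lies near it in TIR1 cells, with 3; the lower share also exceeds its line in WAPL, PDS5AB_NIPBL and WAPL_NIPBL cells, with 7, 4 and 2 genes.

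Markers of other states moved with these changes, and their part in the results was not tested. Of 10 pluripotency markers, 10 fell in PDS5AB, 8 in WAPL, 7 in PDS5AB_NIPBL and 7 in WAPL_NIPBL cells with none higher, and 2 fell and 2 rose in TIR1 cells. Over all genes 20.2%, 15.8%, 8.06%, 3.45% and 9.59% were called lower in these lines, and 25.8%, 17%, 11.4%, 5.11% and 10.4% higher. The pluripotency sum in PDS5AB cells went from 7320 to 7952 CPM untreated to 4715 to 5015 CPM treated. Endoderm markers (8 of 10 tested) rose in 4, 4, 2 and 2 cases in the same 4 lines and in none in TIR1 cells. Their sum went from 18.5 to 24.2 CPM to 52.4 to 69.0 CPM in PDS5AB cells and from 9.31 to 12.1 CPM to 35.6 to 51.4 CPM in WAPL cells. Ttr was at 0 in all PDS5AB libraries. In TIR1 cells the sum lay between 5.72 and 7.24 CPM in both groups. In bulk libraries such as these, fewer cells expressing a gene and less RNA per cell cannot be told apart.

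The remaining marker lists have few genes, beside 46% (PDS5AB), 32.8% (WAPL), 19.5% (PDS5AB_NIPBL), 8.57% (WAPL_NIPBL) and 19.9% (TIR1) of all genes called. Formative epiblast genes (6 tested) had 1 higher and 1 lower in PDS5AB, 3 lower in WAPL and 3 lower in TIR1 cells, and 1 lower in each NIPBL line. Neural markers (6 of 9 tested) had 3 higher and 2 lower in PDS5AB cells and at most 2 called in the other lines. Trophoblast markers (7 of 9 tested, Cdx2 and Hand1 shared with the streak list) had 2 higher and 1 lower in PDS5AB and in TIR1 cells, 2 and 2 in WAPL, 3 and 2 in PDS5AB_NIPBL and 1 and 1 in WAPL_NIPBL cells. The trophoblast sum went from 90.5 to 106.9 CPM to 44.3 to 50.4 CPM in WAPL cells and from 97.0 to 104.6 CPM to 146.1 to 151.5 CPM in TIR1 cells, the latter across the library sets. It went from 76.7 to 87.7 CPM to 108.9 to 136.4 CPM in PDS5AB, from 73.0 to 81.0 CPM to 63.8 to 70.2 CPM in PDS5AB_NIPBL and from 76.0 to 85.5 CPM to 53.8 to 58.3 CPM in WAPL_NIPBL cells. The trophoblast gene Tpbpa was at 0 in all 30 libraries. Fibroblast markers (3 of 5 tested) had 3 lower in WAPL cells, where their sum went from 13.5 to 14.1 CPM untreated to 4.35 to 5.21 CPM with auxin, and 2 higher in PDS5AB cells, where it went from 16.9 to 18.95 CPM to 19.4 to 21.8 CPM. In PDS5AB_NIPBL cells 1 was higher and 1 lower, and 1 was lower in each of WAPL_NIPBL and TIR1 cells.

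The members did not share a single pattern. Over the 10 group means of log2 CPM, Pearson's r between members ranged from 0.84 (Eomes and Evx1) to -0.76 (Evx1 and Gsc), a description over groups that share lines and library sets. Among 12937 genes with a mean of 50 counts or more, Vnn1 (r = 0.99) and Znrf1 (r = 0.97) followed Wnt3 most closely, Dnajc14 and Hp1bp3 (r = 0.98 each) followed T, Dock3 and Itgb1bp1 (r = 0.98 and 0.97) followed Eomes, and Mppe1 and Bhmt2 (r = 0.99 and 0.98) followed Gsc. The members themselves were left out of this ranking. The highest r among so many genes over 10 group means is high by selection.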

How the data were processed

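Per the file headers, the authors' deposited table holds counts of fragments per gene, made by featureCounts 2.0.1 in paired mode with no strand option on GENCODE M23 models of GRCm38. Fragments that fit several genes or places were dropped, and antisense partners cannot be told apart, although the library kit is stranded. The submitters' processing notes also list cutadapt, STAR 2.7.7a and deepTools.

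Counts of all 30 libraries (19632704 to 45539021) were fitted with edgeR 4.0.16 (R 4.3.3): TMM scaling, filterByExpr (minimum count 10, 19868 genes), 1 mean per group, quasi-likelihood test, p-values adjusted by Benjamini-Hochberg and calls at an adjusted p under 0.05. The SE comes from the F statistic. CPM and RPKM use TMM library sizes. For a member with no library above 3 counts in 1 of the groups, the ratio to 3 counts is given in place of a fold. The fit was tested on simulated data. Alternatives were DESeq2 1.42.0, a 2-fold minimum, a replicate block, RLE size factors, no filter, fits of only the compared groups and leaving out each library.

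Library numbers and replicate numbers come from the labels. Same-numbered libraries deviated together in each of the 4 degron lines (r of deviations 0.109 to 0.333 in all 12 pairs) but not in TIR1 (-0.0102 to 0.0574). The 9 genes and all lists were chosen with earlier results of these data known. Genes named from a list are, per treatment effect, up to 2 called genes with the largest change, a mean of 50 counts or more and groups that do not overlap; 1 gene this rule selects is not reported here. The lists were other streak and mesoderm genes, Wnt output, Nodal, FGF and markers of pluripotent, formative, endoderm, neural, trophoblast and fibroblast cells. Promoter sequences are RefSeq's.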

Additional observations from a re-analysis of the deposited data

Results flagged for a closer look

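The treatment responses of 3 of the 9 genes differed between lines past the edgeR threshold, giving 9 called differences. For T the log2 differences were -1.58 (PDS5AB minus TIR1), -1.43 (PDS5AB_NIPBL minus TIR1), -1.20 (WAPL_NIPBL minus TIR1) and -1.04 (PDS5AB minus WAPL). For Gsc they were -1.81 (WAPL minus TIR1), 1.38 (WAPL_NIPBL minus WAPL) and 1.77 (PDS5AB minus WAPL). For Evx1 they were -5.09 (WAPL_NIPBL minus WAPL) and -3.19 (PDS5AB minus WAPL), at 65 counts or fewer in every library; the first depends on a group of 0, 0 and 1 counts and is no measure of size. The comparisons with TIR1 cross the library sets, and set and group cannot be told apart there; the PDS5AB and WAPL libraries also lie in different sets, and the WAPL_NIPBL and WAPL libraries lie within 1 set. With 3 libraries a group, no library was tested for standing apart from its group.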

How the results depend on the processing

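Over 16 comparisons of the 9 genes, 42 values were called. In all, 81 values were followed: the 42, every treatment effect, values called under another setting, and T and Wnt3 in each difference between effects. They were picked partly for being called, so 42 of 81 is not a rate of calls. Each of the 81 was followed with DESeq2, RLE size factors, no filter, both replicate blocks, the compared groups alone and without each library, where these gave a value. None of the 42 changed direction there, and 31 stayed called in all of these, among them 12 of the 19 called treatment effects; the 2-fold minimum below was counted separately and leaves fewer. Mesp1, Evx1, Tbx6 and Fgf8 had only 4.07 to 16 mean counts. Apart from the 2-fold minimum, some calls among them stayed throughout, as for Fgf8 in PDS5AB cells. Others did not, as for Mesp1 in WAPL cells. The cause of the moves below was not tested.

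A minimum change of 2-fold (edgeR's glmTreat) asks for more than a change from 0. Under it 1 of the 9 genes was called in each of the TIR1, PDS5AB, WAPL and PDS5AB_NIPBL effects (3, 5, 4 and 4 before) and 0 in WAPL_NIPBL (3 before). It left 0 in the differences from TIR1 for PDS5AB, PDS5AB_NIPBL and WAPL_NIPBL, 0 between PDS5AB and WAPL, and 0 between WAPL_NIPBL and WAPL. For the untreated lines it left 3 in PDS5AB, 0 in WAPL, 2 in PDS5AB_NIPBL and 1 in WAPL_NIPBL. Over all genes it called 44 (TIR1), 698 (PDS5AB), 424 (WAPL), 75 (PDS5AB_NIPBL) and 17 (WAPL_NIPBL), against 3962, 9134, 6517, 3874 and 1702, and between 0 and 6 genes of each wider list. For the 11 other comparisons it called 3 to 920 of all genes, against 1032 to 6809.

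With the replicate block, which pairs same-numbered libraries, 2 members were called for PDS5AB minus TIR1 and 2 for WAPL minus TIR1 (1 each before), and 2172 of all genes for WAPL_NIPBL minus TIR1 (1398 before). With the block within library set these counts were 3 and 2. Untreated WAPL then had 2 called (1 before) and untreated PDS5AB_NIPBL 3 (5 before), and the TIR1 value of Mixl1 was -0.087 in place of 0.04. Over all genes the block within set called 3397 in WAPL_NIPBL (1702 before), 4052 and 3056 for PDS5AB_NIPBL and WAPL_NIPBL minus TIR1 (2005 and 1398 before), 3989 for PDS5AB_NIPBL minus PDS5AB (1879), 2342 for WAPL_NIPBL minus WAPL (1032) and 4532 for PDS5AB minus WAPL (2481). It called 8 Wnt output and 6 Nodal genes in WAPL_NIPBL (5 and 2 before) and 5 FGF genes in TIR1 (3 before). Beyond these and the values printed beside the results, the block changed no call of a treatment effect. In TIR1 cells the libraries share only a number.

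With the compared groups alone, 1 member was called for WAPL_NIPBL minus WAPL and 3 in untreated PDS5AB_NIPBL, Wnt3 differed between PDS5AB and WAPL by -0.0038 in place of 0.02, and 2122 of all genes were called for WAPL_NIPBL minus TIR1 (1398 before). DESeq2 called 2 for PDS5AB minus TIR1 and 1 for WAPL_NIPBL minus WAPL. In both of these fits Evx1 had no adjusted p for WAPL_NIPBL minus WAPL. The Nodal count in WAPL_NIPBL was 5 with no filter and with the compared groups alone (2 before).

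Leaving out 1 library at a time gave 3 to 7 members called in PDS5AB, 2 to 3 in PDS5AB_NIPBL, 1 to 3 for PDS5AB minus TIR1, 1 to 2 for WAPL minus TIR1, 1 to 2 for WAPL_NIPBL minus WAPL, 1 to 2 in untreated WAPL and 3 to 4 in untreated PDS5AB_NIPBL. All genes called in untreated WAPL numbered 1621 without untreated TIR1 replicate 2 and 1599 without WAPL replicate 2 (2785 before). Values that were not called crossed 0 in TIR1 for Mixl1 (-0.23 to 0.38), Mesp1 (-1.31 to 0.37), Fgf8 (-0.0061 to 2.05) and Tbx6 (-0.30 to 0.50). They did so in PDS5AB_NIPBL for Mesp1 (-0.021 to 1.00), Gsc (-0.080 to 0.20) and Tbx6 (-0.92 to 0.14), in WAPL for Tbx6 (-0.13 to 0.54) and in WAPL_NIPBL for Mesp1 (-0.93 to 1.16) and Tbx6 (-0.26 to 0.25). Among differences, T (-0.069 to 0.40) and Wnt3 (-0.37 to 0.47) crossed 0 for PDS5AB_NIPBL minus PDS5AB, and Wnt3 (-0.23 to 0.35) for PDS5AB minus WAPL.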

Other observations

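Genes near the members gave values of their own; this look at genes within 200 kb was chosen after values were seen. Around Wnt3, 6 genes were tested, and 5 of them were called higher in PDS5AB cells after auxin, beside 25.8% of all genes. They were Nsf (log2 fold change 0.27 ± 0.06), Arf2 (0.49 ± 0.10), Rprml (1.81 ± 0.37), Gm884 (2.49 ± 0.68) and Wnt9b (2.69 ± 0.53), a further Wnt ligand. Rprml, Gm884 and Wnt9b had at most 48, 21 and 22 counts in a PDS5AB library. The same 6 genes had 2 called higher in PDS5AB_NIPBL, 1 in WAPL (Wnt9b) and 0 in WAPL_NIPBL and TIR1 cells by edgeR, beside 11.4%, 17%, 5.11% and 10.4% of all genes; Wnt3 itself was called higher in all of these. At an unadjusted p under 0.05 the counts in WAPL_NIPBL and TIR1 cells were 2 and 1.

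Around T, 6 genes were tested, of which 3 were called higher in PDS5AB, 2 each in WAPL, PDS5AB_NIPBL, WAPL_NIPBL and TIR1, beside 25.8%, 17%, 11.4%, 5.11% and 10.4% of all genes, and 1 lower in PDS5AB_NIPBL, beside 8.06%. Pde10a, a phosphodiesterase gene 82876 bases from T, was called higher in all 5 lines, by 2.28 ± 0.22 in PDS5AB, 1.44 ± 0.25 in WAPL, 1.45 ± 0.26 in PDS5AB_NIPBL, 1.18 ± 0.31 in WAPL_NIPBL and 0.99 ± 0.30 in TIR1 cells. Mpc1, a mitochondrial pyruvate carrier gene, was called higher in the 4 degron lines, by 0.73 ± 0.09, 0.54 ± 0.09, 0.56 ± 0.09 and 0.44 ± 0.09 in the same order, and was at -0.05 ± 0.09 in TIR1 cells. T2, the nearest of the 6 at 10910 bases, was called in TIR1 cells alone (adjusted p = 0.0362), where untreated libraries held 0 to 3 counts and treated ones 7 to 16, so no fold is given; whether its response differed between lines was not tested. The order of Pde10a across lines was not that of T, whose value in PDS5AB cells was not called. Around the other 7 members, the genes called higher and lower in PDS5AB cells were 2 and 1 of 5 (Eomes), 6 and 1 of 16 (Evx1), 1 and 1 of 7 (Fgf8), 0 and 0 of 2 (Gsc), 4 and 2 of 13 (Mesp1), 1 and 4 of 9 (Mixl1) and 2 and 6 of 28 (Tbx6), beside 25.8% and 20.2% of all genes. The 2 genes near Gsc had 0 at an unadjusted p under 0.05 as well. In WAPL cells, 1 of the 7 genes near Fgf8 was called higher and 5 lower, beside 17% and 15.8% of all genes. Counts around these members in the other lines are not all given here. Wnt3 and T were described after all 9 had been counted. Whether the neighbours and the members change together for a shared reason was not tested.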
